A study of Homo sapiens with 6 samples.

Results

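Cyclins, cyclin-dependent kinases (CDKs) and CDK inhibitors are described here in KhES-1, a line of human embryonic stem (ES) cells. The genes were taken by symbol: CCN followed by letters and an optional number, CDK followed by a number and an optional A or B, and the CDKN1, CDKN2 and CDKN3 inhibitors. This took 57 of the 23346 gene rows. All dishes were coated with a laminin fragment and held AKIT or, as control, Essential 8 (E8) medium. E8 supplies the growth factors FGF2 and TGF-beta, which AKIT is known to replace by blocking GSK3, DYRK kinases and calcineurin. Neither group carried a genetic change, and both come from the same cell line. All 3 AKIT libraries were set against 2 of the 3 E8 libraries. The third E8 library was not analysed here.

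A cyclin binds and switches on a CDK, and the pair drives a step of the cell cycle. D-type cyclins act with CDK4 and CDK6 in G1, E-type cyclins with CDK2 at entry into S phase, A-type cyclins with CDK2 and CDK1 in S and G2, and B-type cyclins with CDK1 in mitosis. INK4 proteins block CDK4 and CDK6, and CIP/KIP proteins bind cyclin-CDK pairs more widely. Other cyclins and CDKs act on RNA polymerase II rather than on the cell cycle. Human embryonic stem cells are known for a short G1 phase and for low levels of CDK inhibitors.

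Values are RPKM, read counts scaled to gene length and library size, so that levels can be compared between genes. Depths inferred from the values were 19398696 to 23263096 reads per AKIT library, against 17657636 and 16242864 reads in the E8 libraries. The labels do not say whether replicates were separate cultures, so p-values rest on library-to-library spread that could be technical only. The pluripotent identity was checked on 8 markers, whose summed level was 3184 to 3220.1 RPKM in AKIT libraries and 3858 and 3938 RPKM in E8 libraries. Of these, SOX2 and PODXL fell (limma adjusted p = 0.0162 each), though neither call held without E8 replicate 1 (0.152 and 0.147) or 2 (0.118 and 0.2003), and SOX2 did not pass without AKIT replicate 3 (0.0525) nor PODXL with no filter on low values (0.0810). POU5F1 was at 296 to 400.0 RPKM in AKIT and 342 and 313 RPKM in E8. LIN28A and PODXL weighed most in the sum, with means of 805 and 764 RPKM in AKIT, against 951 and 1172 RPKM in E8. Of the 8 markers, 3 were higher in AKIT and 5 lower. DNMT3B lay above E8 in every AKIT library, with means of 512 RPKM in AKIT and 420 RPKM in E8. NANOG had means of 10.5 and 8.15 RPKM. Neither DNMT3B nor NANOG passed (limma adjusted p = 0.142 and 0.322). Over all genes, AKIT replicate 2 stood apart from the other AKIT libraries on the second principal component (17.2% of the variance), so counts and calls of the family are also given without it.

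Of the 57 genes, 51 reached a mean of 0.5 RPKM over the 5 libraries and were tested. The test was limma's moderated test on log2(RPKM + 1), with Benjamini-Hochberg adjustment over all 14776 tested genes. Each difference is AKIT minus E8 in these log2 units, where the pseudocount shrinks changes of low genes, and "rose" and "fell" mean an adjusted p under 0.05. CDK6 rose, and CDK18, CCNE2, CCND2, CDKN1C, CCNJL, CDK1 and CCNI fell. These 8 genes are 15.7% of the 51, and 20.0% of all tested genes passed the same test. By direction, 1 rose (2.0%), against 8.22% of all tested genes, and 7 fell (13.7%), against 11.7%. The median difference of the 51 genes was 0.01, and that of all tested genes was -0.01. AKIT and E8 libraries did not overlap for 20 of the 51 genes (39.2%), against 54.4% of all tested genes. A share near or below that of all genes is not a result about this family, and what follows describes single genes.

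The count depended on the libraries used. Without AKIT replicate 2, 16 genes passed: the same 8 and, in addition, CCNA1, CCNE1, CCNI2, CDK4 and CDK7, which were higher, and CCNL1, CCNL2 and CDK3, which were lower. In that fit 32.2% of all tested genes passed, so the larger count is no result about the family. With E8 replicate 1 left out only CCNE2 passed, and with E8 replicate 2 left out only CCNE2 and CDK6 passed. In those fits the lone E8 library is assumed to vary like the AKIT libraries. Leaving out AKIT replicate 1 gave 1 gene that rose and 5 that fell, while AKIT replicate 3 left out gave 1 and 4.

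**Figure D1:**
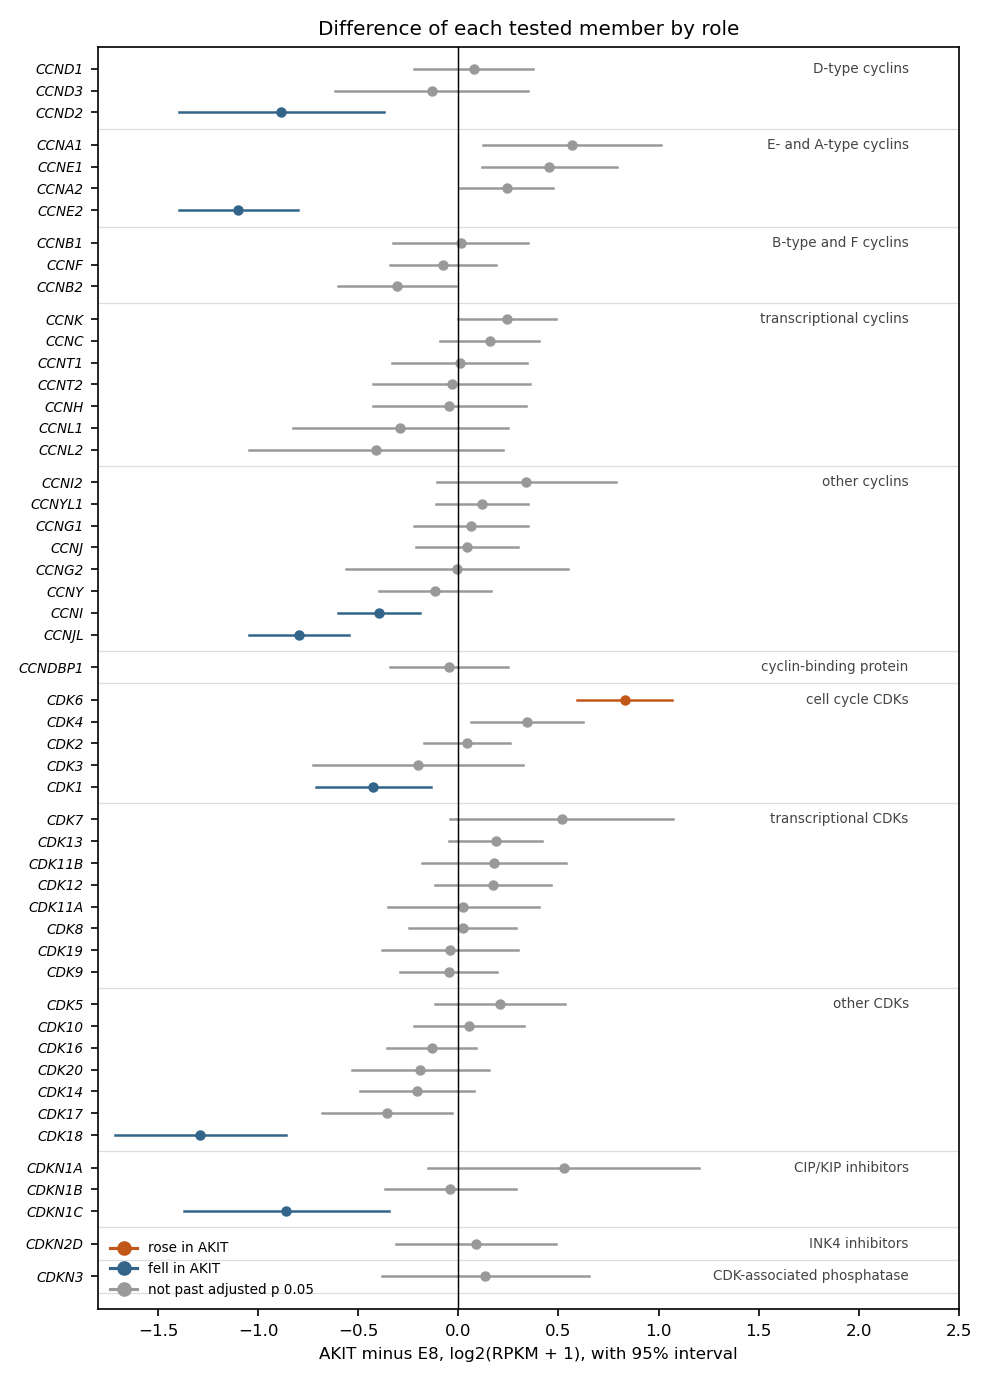
Difference (AKIT minus E8) of each of the 51 tested genes in log2(RPKM + 1) units (x axis), with its 95% interval from limma, grouped by role down the page. CDK6 is the single gene marked as risen, and the 7 marked as fallen are spread over 6 of the role groups.

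The levels of these genes spanned a wide range. CCNG1, a G-type cyclin, had the highest mean in both media, at 322 ± 35.1 RPKM in AKIT and 307 ± 6.07 RPKM in E8 (SD, n = 3 and n = 2, as throughout). CCND1 followed in AKIT, at 131 ± 16.7 RPKM, against 123 ± 4.17 RPKM in E8. In E8 the second place was held by CCNI, at 98.9 ± 1.67 RPKM in AKIT and 130.4 ± 0.0761 RPKM in E8. In E8 the levels of CCNI and CCND1 were close, and in AKIT the 3 CCND1 libraries lay above the 3 CCNI libraries. At the low end, CDK15 was listed at 0 in all 5 libraries.

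Among the D-type cyclins, which act in G1 with CDK4 and CDK6, CCND2 fell while CCND1 and CCND3 did not pass. CCND2 had 11.7, 12.2 and 7.01 RPKM in AKIT replicates 1, 2 and 3, against 19.4 and 19.4 RPKM in E8. All AKIT libraries were below both E8 libraries, and AKIT replicate 3 was the lowest. The difference was -0.89 ± 0.22 (SE; limma adjusted p = 0.0316). This call ended without AKIT replicate 1 (limma adjusted p = 0.0503), without E8 replicate 1 (0.176) or 2 (0.178) and with no filter on low values (0.0609), within 0.0138 to 0.178 over the 11 alternatives. CCND1 had 114, 147 and 129.9 RPKM in AKIT, against 126 and 120.2 RPKM in E8, so that the groups overlapped (difference 0.08, 95% interval -0.22 to 0.37). CCND3 had 17.2, 10.2 and 15.7 RPKM in AKIT, against 15.6 and 15.4 RPKM in E8 (-0.13, 95% interval -0.61 to 0.35), with AKIT replicate 2 the lowest.

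The make-up of the D-type pool differed between the media while its sum did not separate them. CCND1 made up 79.8%, 86.8% and 85.1% of the summed D-type RPKM in AKIT, against 78.3% and 77.5% in E8. CCND2 made up 8.19%, 7.18% and 4.59% in AKIT, against 12.0% and 12.5% in E8. The summed level was 155 ± 13.6 RPKM in AKIT and 158 ± 4.23 RPKM in E8. The shares were compared as values only, with no test.

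**Figure D2:**
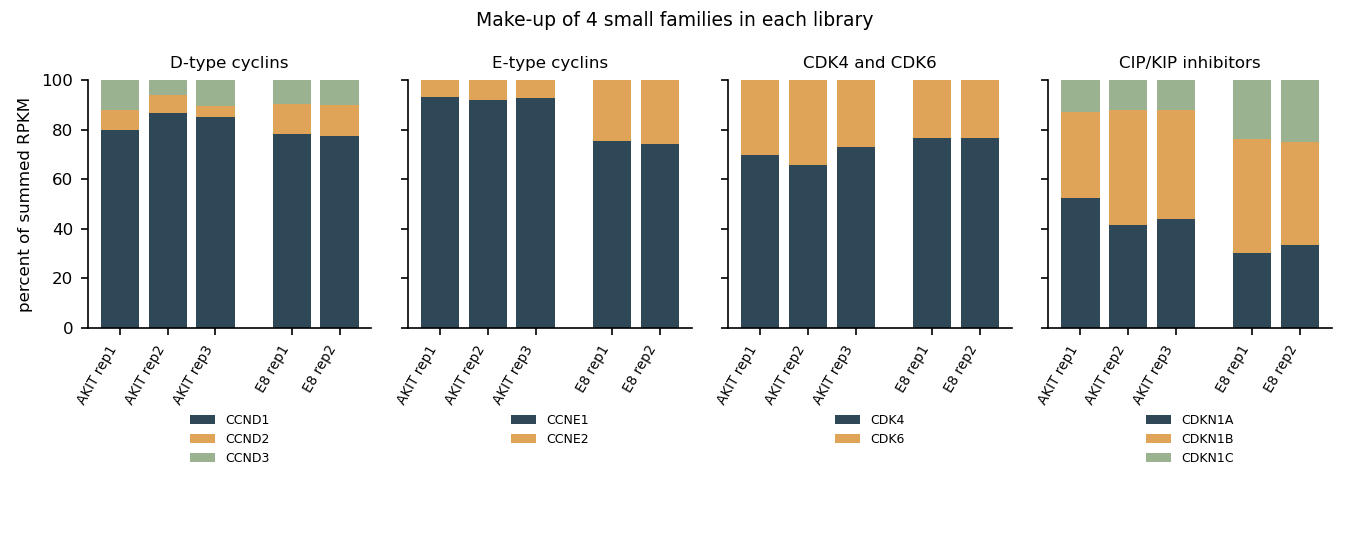
Share of each gene in the summed RPKM of its family (y axis, percent) in every AKIT and E8 library (x axis), for the D-type cyclins, the E-type cyclins, CDK4 with CDK6, and the CIP/KIP inhibitors. CCNE2 takes 6.91% to 8.24% of the E-type sum in AKIT and 24.6% and 26.0% in E8, and CDKN1C takes 12.0% to 12.7% of the CIP/KIP sum in AKIT and 23.8% and 24.9% in E8.

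The 2 E-type cyclins, which activate CDK2 at entry into S phase, went in opposite directions in the means. CCNE2 had 1.21, 1.26 and 1.51 RPKM in AKIT, against 3.93 and 4.04 RPKM in E8, and fell by 1.10 ± 0.13 on the log2 scale (limma adjusted p = 0.0029). These levels rested on 77, 80 and 80 reads in AKIT and 189 and 179 reads in E8, and the groups did not overlap. CCNE2 passed under all 11 alternatives (limma adjusted p = 0.00111 to 0.0475). CCNE1 had 16.4, 14.0 and 19.5 RPKM in AKIT, against 12.0 and 11.5 RPKM in E8. All AKIT libraries were above both E8 libraries, but the difference of 0.45 ± 0.14 did not pass (limma adjusted p = 0.0663). With AKIT replicate 2 left out, CCNE1 passed at a difference of 0.56 (limma adjusted p = 0.0125, the lowest of a range up to 0.317 over the alternatives). The ratio of CCNE1 to CCNE2 was 13.5, 11.1 and 12.9 in AKIT, against 3.07 and 2.85 in E8.

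No A-type, B-type or F cyclin passed. CCNA2, the A-type cyclin of dividing somatic cells, had 60.1, 59.7 and 65.0 RPKM in AKIT, against 55.0 and 49.0 RPKM in E8 (difference 0.24 ± 0.10, limma adjusted p = 0.128). CCNA1, known from germ cells, was low, at 1.82 ± 0.536 RPKM in AKIT and 0.892 ± 0.252 RPKM in E8 (limma adjusted p = 0.0775). It passed without AKIT replicate 2, with a difference of 0.65 (limma adjusted p = 0.0476). The mitotic cyclin CCNB1 had 39.7, 46.3 and 55.3 RPKM in AKIT, against 45.4 and 47.1 RPKM in E8, and the E8 libraries lay inside the AKIT range. CCNB2, its close relative, had 20.2, 17.5 and 21.1 RPKM in AKIT, against 22.3 and 26.6 RPKM in E8. Its libraries did not overlap, and the difference of -0.31 ± 0.12 did not pass (limma adjusted p = 0.126). CCNF, an F-box protein with a cyclin fold, was at 25.2 ± 2.38 RPKM in AKIT and 26.6 ± 1.45 RPKM in E8.

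Of the 5 cell cycle CDKs, CDK6 rose and CDK1 fell. CDK6, the G1 kinase that pairs with D-type cyclins, had 28.4, 29.9 and 26.6 RPKM in AKIT, against 14.7 and 16.2 RPKM in E8. The groups were well apart, and the difference was 0.83 ± 0.10 (limma adjusted p = 0.00323). Without E8 replicate 1 it was 0.77 and did not pass (limma adjusted p = 0.0612, with 0.000784 to 0.0612 over the alternatives). CDK4, its partner paralog, had 65.4, 57.8 and 71.7 RPKM in AKIT, against 48.3 and 53.6 RPKM in E8. The libraries did not overlap, but the difference of 0.34 ± 0.12 did not pass (limma adjusted p = 0.0864). With AKIT replicate 2 left out, CDK4 passed at a difference of 0.42 (limma adjusted p = 0.0173, the lowest of a range up to 0.441 over the alternatives). The summed level of CDK4 and CDK6 was 93.3 ± 5.38 RPKM in AKIT and 66.4 ± 4.79 RPKM in E8, and CDK6 made up 30.3%, 34.1% and 27.1% of it in AKIT, against 23.4% and 23.2% in E8.

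CDK1, the kinase of mitosis, had 18.9, 15.3 and 19.2 RPKM in AKIT, against 24.5 and 23.8 RPKM in E8. All AKIT libraries were lower, and the difference of -0.43 ± 0.12 lay close to the threshold (limma adjusted p = 0.0498). It passed in 3 of the 11 alternatives: a minimum mean of 2 RPKM, the fit on recovered reads, and without AKIT replicate 2 (difference -0.33, limma adjusted p = 0.0261). It did not pass without AKIT replicate 1 (0.0719) or 3 (0.0676), without E8 replicate 1 (0.279) or 2 (0.247), or in the other 4. In bulk RNA, fewer cells of a kind and less RNA per cell cannot be told apart, which holds for every difference given here. CDK2 was at 21.7 ± 0.802 RPKM in AKIT and 21.0 ± 0.341 RPKM in E8, and the difference had a 95% interval of -0.17 to 0.26. CDK1 exceeded CDK2 in both E8 libraries (ratio 1.15 and 1.14) and was below it in the AKIT libraries (0.844, 0.736 and 0.871). CDK3 varied most among these kinases, at 5.92, 11.0 and 7.29 RPKM in AKIT and 8.91 and 9.41 RPKM in E8. The table also holds a row for the TEN1-CDK3 readthrough, so that reads of CDK3 may be split between the rows.

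Promoter windows show how the kinases and cyclins discussed above differ in sequence. Windows of 250 bases before to 50 after the start site, from RefSeq (GRCh38.p14), were found for 52 of the 57 genes. CCND1, CCND2, CCNE2, CDK2 and CDKN1C had no entry. Each window was searched on both strands for 4 kinds of motif. These were TTTGAA, a form of the core of the cell cycle homology region (CHR) of mitotic genes, and CCAAT, the box bound by NF-Y. The others were CACGTG, the E-box bound by MYC and related factors, and the E2F motifs TTTGGCGC, TTTCGCGC and TTCCCGCC. The windows of CDK1, CCNB2, CCNB1, CCNA2, CDK4 and CDK6 are shown as examples picked by hand. Of these genes CDK6 rose, CDK1 fell and the others did not pass. The windows of CCNA1, CCNB3 and CCNE1 held no match and are not shown. Many windows with matches are not shown either, such as that of CCNF with 1 CHR match and 4 CCAAT boxes. Among the called genes this holds for CCNI, CCNJL and CDK18. Capitals mark matches of these 4 kinds of motif, and none of these matches overlap.
CDK1: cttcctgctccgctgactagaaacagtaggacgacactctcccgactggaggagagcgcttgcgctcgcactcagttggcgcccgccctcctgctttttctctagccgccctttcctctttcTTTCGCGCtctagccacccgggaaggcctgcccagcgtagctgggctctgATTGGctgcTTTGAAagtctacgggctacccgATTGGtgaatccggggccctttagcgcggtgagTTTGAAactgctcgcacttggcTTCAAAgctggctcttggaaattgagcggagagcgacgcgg
CCNB2: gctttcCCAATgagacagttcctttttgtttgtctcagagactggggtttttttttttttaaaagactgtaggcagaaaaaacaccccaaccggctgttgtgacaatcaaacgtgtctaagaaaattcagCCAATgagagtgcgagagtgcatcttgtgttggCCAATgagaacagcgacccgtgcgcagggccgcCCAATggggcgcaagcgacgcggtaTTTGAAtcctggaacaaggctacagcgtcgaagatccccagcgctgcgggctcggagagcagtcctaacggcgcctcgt
CCNB1: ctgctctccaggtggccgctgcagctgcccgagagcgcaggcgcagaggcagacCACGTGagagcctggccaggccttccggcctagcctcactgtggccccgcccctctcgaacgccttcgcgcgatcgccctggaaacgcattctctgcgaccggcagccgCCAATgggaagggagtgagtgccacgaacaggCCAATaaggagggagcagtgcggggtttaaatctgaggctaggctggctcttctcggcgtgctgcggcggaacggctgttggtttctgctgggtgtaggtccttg
CCNA2: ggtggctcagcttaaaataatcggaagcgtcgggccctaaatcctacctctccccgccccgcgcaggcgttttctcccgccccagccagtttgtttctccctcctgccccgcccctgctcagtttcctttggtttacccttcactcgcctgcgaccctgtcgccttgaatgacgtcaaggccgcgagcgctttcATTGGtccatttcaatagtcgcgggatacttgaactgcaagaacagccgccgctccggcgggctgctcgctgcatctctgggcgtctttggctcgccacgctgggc
CDK4: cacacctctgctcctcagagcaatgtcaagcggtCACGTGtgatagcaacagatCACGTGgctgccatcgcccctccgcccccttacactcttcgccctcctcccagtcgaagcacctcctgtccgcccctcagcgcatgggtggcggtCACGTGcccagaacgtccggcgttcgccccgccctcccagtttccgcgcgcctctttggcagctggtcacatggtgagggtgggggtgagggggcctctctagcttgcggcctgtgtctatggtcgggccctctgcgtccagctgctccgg
CDK6: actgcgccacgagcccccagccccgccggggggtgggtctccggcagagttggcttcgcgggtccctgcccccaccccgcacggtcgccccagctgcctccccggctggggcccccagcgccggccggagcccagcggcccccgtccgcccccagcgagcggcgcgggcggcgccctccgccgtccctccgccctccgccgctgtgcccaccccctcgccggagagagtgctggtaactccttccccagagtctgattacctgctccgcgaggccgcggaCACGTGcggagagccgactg

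The window of CDK1 (chr10:60778228-60778527, plus strand, the second of 2 windows) held 3 CHR matches, the nearest upstream one starting 13 bases before the start site, 2 CCAAT boxes and 1 E2F match (TTTCGCGC). The other window of CDK1, which overlaps it, held 1 CHR match, 1 CCAAT box and 1 E2F match. That of CCNB2 (chr15:59104896-59105195, plus strand) held 1 CHR match, starting 29 bases upstream, and 4 CCAAT boxes. That of CCNB1 (chr5:69166900-69167199, plus strand) held 2 CCAAT boxes and 1 E-box, and that of CCNA2 (chr4:121823834-121824133, minus strand) held 1 CCAAT box. The window of CDK4 (chr12:57752261-57752560, minus strand) held 3 E-boxes, and that of CDK6 (chr7:92836524-92836823, minus strand, the second of 2 windows) held 1. The other window of CDK6 held no match. Over all 35116 windows, 15.2% held the CHR letters, 34.6% a CCAAT box, 7.26% an E-box and 4.24% an E2F motif. Among 75 windows of the family the counts were 9, 31, 11 and 6. A match describes the letters and is not a site of binding. Only TTTGAA was searched as CHR, so windows without it, such as those of CCNA2 and CCNB1, may hold a CHR of other letters.

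**Figure D3:**
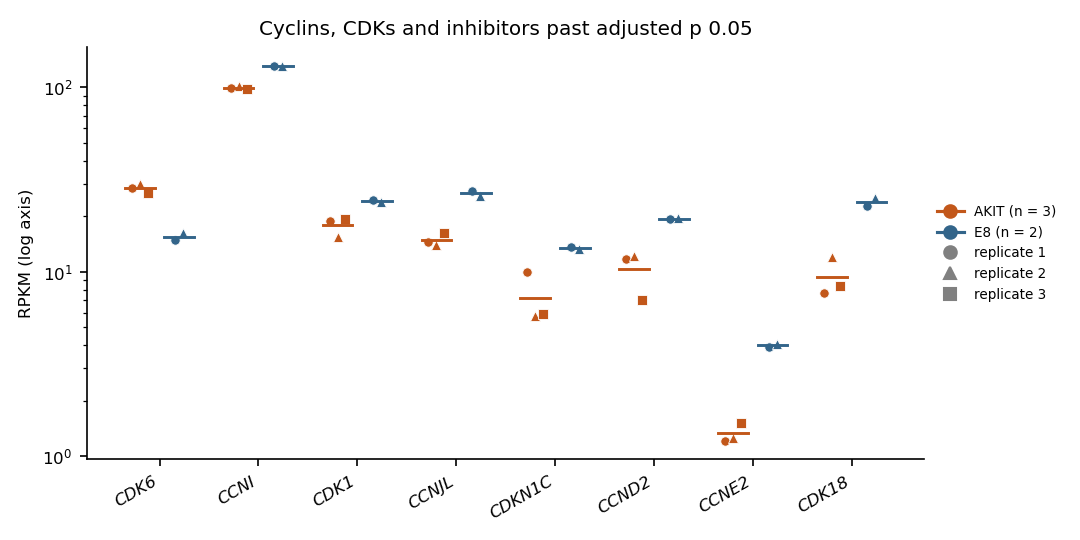
RPKM on a log axis for the 8 genes past an adjusted p of 0.05, ordered by difference, with each AKIT and E8 library as a point and the group mean as a line. In all 8 genes the AKIT points lie on one side of both E8 points, and CDK6 is the gene with AKIT above E8.

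Of the CIP/KIP inhibitors, CDKN1C fell. CDKN1C encodes p57, an inhibitor expressed from the maternal allele, and had 9.96, 5.75 and 5.88 RPKM in AKIT, against 13.6 and 13.3 RPKM in E8. AKIT replicate 1 was the highest of the AKIT libraries and still below E8. The difference was -0.86 ± 0.22 (limma adjusted p = 0.0346). The call ended without AKIT replicate 3 (0.0975), without E8 replicate 1 (0.193) or 2 (0.182) and with no filter (0.0662), within limma adjusted p = 0.00799 to 0.193 over the alternatives. CDKN1B, which encodes p27, had 27.3, 22.1 and 21.4 RPKM in AKIT, against 26.3 and 22.1 RPKM in E8, and the groups overlapped (95% interval of the difference -0.37 to 0.29).

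CDKN1A, which encodes p21, had 41.0, 19.9 and 21.2 RPKM in AKIT, against 17.4 and 18.0 RPKM in E8. The AKIT libraries were all above E8, but AKIT replicate 1 stood far above the other AKIT libraries, and the difference of 0.53 ± 0.29 did not pass (limma adjusted p = 0.233). It was 0.20 once AKIT replicate 1 was left out. Markers of other cell types also differed among the AKIT libraries. The summed level of 7 trophoblast and amnion markers was 9.31, 2.69 and 3.73 RPKM in AKIT, against 7.37 and 7.14 RPKM in E8. That of 8 fibroblast and mesenchyme markers was 264, 203 and 208 RPKM in AKIT, against 342 and 343 RPKM in E8. Most of this sum was THY1, with 203, 145 and 157 RPKM in AKIT and 275 and 273 RPKM in E8. The sum therefore mainly follows that gene. THY1 was high in E8, where DCN and LUM were at 0 RPKM. The sum is thus no measure of fibroblasts. THY1 fell together with COL1A1 (limma adjusted p = 0.0206 and 0.0314). The low matrix genes varied among AKIT libraries: DCN was at 0.754, 0.0685 and 0 RPKM in AKIT and at 0 in both E8 libraries. LUM, another matrix gene of fibroblasts, was at 5.81, 1.83 and 0.0244 RPKM in AKIT and at 0 in both E8 libraries. For the collagen gene COL3A1, AKIT replicates 1, 2 and 3 gave 5.63, 2.15 and 0.141 RPKM, while E8 gave 0.0413 and 0 RPKM. Neither COL3A1 nor LUM passed (limma adjusted p = 0.140 and 0.178). Both were called as higher without AKIT replicate 3 and with the replicate number as a block. TFAP2B, an amnion marker below the filter, was at 2.40, 0.0596 and 0.0179 RPKM in AKIT and at 0 in both E8 libraries. KRT7, the called gene among the trophoblast and amnion markers, fell to 1.59 ± 0.447 RPKM in AKIT, against 5.23 ± 0.0834 RPKM in E8 (limma adjusted p = 0.00399). The summed level of 7 primitive streak and mesoderm markers was 146, 121 and 91.2 RPKM in AKIT, against 35.0 and 35.2 RPKM in E8. Most of it was KDR, which rose (limma adjusted p = 0.00178). KDR was at 29.4 and 30.6 RPKM in E8, where T was at 0.0450 and 0.0489 RPKM. T, MIXL1 and HAND1 were also above E8 in every AKIT library and highest in replicate 1. HAND1 was at 6.31, 2.79 and 1.78 RPKM in AKIT, against 1.04 and 0.921 RPKM in E8. T was below the filter, and MIXL1 and HAND1 did not pass (limma adjusted p = 0.0681 and 0.0776). HAND1 and T passed without AKIT replicate 3. TBX6 and MESP1 had lower means in AKIT. The part of all these markers in the levels of CDKN1A and CDKN1C was not tested. The summed level of 6 endoderm markers was 4.96 to 6.07 RPKM in AKIT and 4.37 and 5.24 RPKM in E8. In that list FOXA2 rose, at 2.80 ± 0.855 RPKM in AKIT and 0.537 ± 0.160 RPKM in E8 (limma adjusted p = 0.00778), and HHEX fell, at 0.976 ± 0.349 RPKM in AKIT and 3.08 ± 0.798 RPKM in E8 (0.0140). GATA4 and GATA6 were below the filter and above E8 in every AKIT library. Their means were 0.577 and 0.563 RPKM in AKIT, against 0.297 and 0.329 RPKM in E8. HHEX alone in that list had a lower mean in AKIT. With each E8 library left out in turn, KDR passed both times and the other called markers of these lists did not. COL1A1 was also not called without AKIT replicate 1 (limma adjusted p = 0.0521) or 3 (0.0689), nor THY1 without AKIT replicate 3 (0.0636). The summed level of 6 neuroectoderm markers was 196 to 215 RPKM in AKIT and 228 and 215 RPKM in E8, most of it NES. Among AKIT libraries NES, DCX, PAX6, LHX2 and SIX3 were highest in replicate 2 and SOX1 in replicate 1. SIX3 was at 0.0682, 0.750 and 0.0817 RPKM in AKIT, against 0.180 and 0.244 RPKM in E8. PAX6, LHX2, SIX3 and SOX1 were below the filter, and NES and DCX did not pass.

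Of the 4 INK4 inhibitors of CDK4 and CDK6, CDKN2D alone reached the filter of 0.5 RPKM. CDKN2D was at 3.51, 2.21 and 3.12 RPKM in AKIT, against 2.75 and 2.60 RPKM in E8, and the groups overlapped. CDKN2A, whose row takes both p16 and ARF transcripts, had 12, 0 and 14 reads in AKIT, against 17 and 2 reads in E8. For AKIT replicate 2 a count of 0 allows up to 3 reads, or 0.0621 RPKM (counting error only). CDKN2B had 34, 25 and 14 reads in AKIT, against 12 and 9 reads in E8, or 0.545 ± 0.186 RPKM and 0.310 ± 0.0446 RPKM. CDKN2C had 2, 2 and 3 reads in AKIT, against 2 and 4 reads in E8. These 3 genes were below the filter and were not tested. CDKN3, a phosphatase that acts on CDK2, was at 10.7 ± 2.69 RPKM in AKIT and 9.64 ± 2.30 RPKM in E8 (limma adjusted p = 0.693).

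Among the less studied kinases CDK18 fell. CDK18, a kinase related to CDK16 and CDK17, had 7.63, 12.0 and 8.41 RPKM in AKIT, against 22.7 and 25.1 RPKM in E8. Its difference was -1.29 ± 0.18 (limma adjusted p = 0.00513), with AKIT replicate 2 nearest to E8. Its call ended without E8 replicate 1 (0.0512) or 2 (0.0632), within limma adjusted p = 0.000544 to 0.0632 over the alternatives. Its relatives were also lower in the means. CDK16 was at 47.6 ± 2.42 RPKM in AKIT and 52.3 ± 2.11 RPKM in E8, and CDK17 at 4.54 ± 0.454 RPKM in AKIT and 6.12 ± 0.967 RPKM in E8, and neither passed (limma adjusted p = 0.343 and 0.111). Of the other kinases of this group, CDK5, CDK10, CDK14 and CDK20 had differences of 0.21, 0.05, -0.21 and -0.19, none of which passed.

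Of the other cyclins, CCNJL and CCNI fell. CCNJL, which resembles cyclin J, had 14.5, 13.9 and 16.3 RPKM in AKIT, against 27.3 and 25.7 RPKM in E8 (difference -0.80 ± 0.11, limma adjusted p = 0.00432). The AKIT libraries lay close together and far below E8. The call ended without E8 replicate 1 (0.0744) or 2 (0.0580), within limma adjusted p = 0.00159 to 0.0744. CCNJ itself was at 24.5 ± 2.26 RPKM in AKIT and 23.7 ± 0.578 RPKM in E8, with overlap. CCNI, a cyclin abundant in these cells, had 98.4, 100.8 and 97.5 RPKM in AKIT, against 130.5 and 130.4 RPKM in E8 (difference -0.40 ± 0.09, limma adjusted p = 0.0227). Both groups were tight. The call of CCNI ended without AKIT replicate 3 (0.0523) and without E8 replicate 1 (0.215) or 2 (0.217), within limma adjusted p = 0.00889 to 0.217.

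The remaining cyclins of this group did not pass. CCNG2, a cyclin linked to growth arrest, had 4.61, 3.42 and 2.15 RPKM in AKIT, against 3.48 and 3.12 RPKM in E8, and the E8 libraries lay inside the AKIT range. CCNI2 was at 1.42 ± 0.484 RPKM in AKIT and 0.890 ± 0.0348 RPKM in E8, and it passed without AKIT replicate 2 (difference 0.49, limma adjusted p = 0.0480). CCNY, a membrane-bound cyclin that works with CDK14 and CDK16, was at 22.7 ± 2.69 RPKM in AKIT and 24.6 ± 0.0650 RPKM in E8. CCNYL1, its relative, was at 23.7 ± 0.734 RPKM in AKIT and 21.8 ± 1.63 RPKM in E8. CCNO, known from multiciliated cells, had 2, 0 and 0 reads in AKIT, against 5 and 2 reads in E8, and CCNB3, a meiotic cyclin, had 22, 30 and 32 reads in AKIT, against 16 and 6 reads in E8. Both were below the filter. CCNDBP1, which the symbol rule takes although it encodes a protein that binds D-type cyclins and is no cyclin, was at 4.95 ± 0.497 RPKM in AKIT and 5.14 ± 0.428 RPKM in E8.

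None of the 7 cyclins and 8 kinases that act on transcription passed. CDK9, the kinase of the elongation factor P-TEFb, was at 37.5 ± 3.09 RPKM in AKIT and 38.7 ± 0.465 RPKM in E8, and its cyclins CCNT1 and CCNT2 had differences of 0.01 and -0.03. CDK12 and CDK13, elongation kinases that pair with CCNK, had differences of 0.17 and 0.19, and CCNK one of 0.24. CDK8, CDK19 and CCNC, of the Mediator kinase module, had differences of 0.02, -0.04 and 0.16. CDK7, the catalytic subunit of the CDK-activating kinase, had 4.76, 2.86 and 5.17 RPKM in AKIT, against 2.09 and 3.21 RPKM in E8, and its cyclin CCNH had 6.14, 4.12 and 4.66 RPKM in AKIT, against 4.94 and 5.26 RPKM in E8. Both genes were lowest in AKIT replicate 2 among the AKIT libraries. Without that library CDK7 passed (difference 0.73, limma adjusted p = 0.0215). CDK11A and CDK11B are near-identical copies whose reads may be split between the rows, and their levels of 1.31 ± 0.342 and 1.99 ± 0.332 RPKM in AKIT and 1.26 ± 0.0529 and 1.64 ± 0.295 RPKM in E8 are uncertain for that reason.

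The L-type cyclins, which act in splicing with CDK11, showed how far the AKIT libraries differed from each other. CCNL2 had 25.2, 49.9 and 27.8 RPKM in AKIT, against 45.4 and 42.5 RPKM in E8, and CCNL1 had 15.8, 29.2 and 19.9 RPKM in AKIT, against 25.0 and 26.8 RPKM in E8. In both genes AKIT replicate 2 lay above E8 and the other AKIT libraries below it. Without AKIT replicate 2 both passed, with differences of -0.71 (limma adjusted p = 0.00307) and -0.52 (0.0223). Of the 51 genes, 47 had a wider range among the 3 AKIT libraries than between the 2 E8 libraries, with median ranges of 0.31 and 0.08 on the log2 scale. A range over 3 libraries tends to be wider than one over 2. The library farthest from the AKIT median was replicate 2 in 22 genes, replicate 3 in 16 and replicate 1 in 13.

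**Figure D4:**
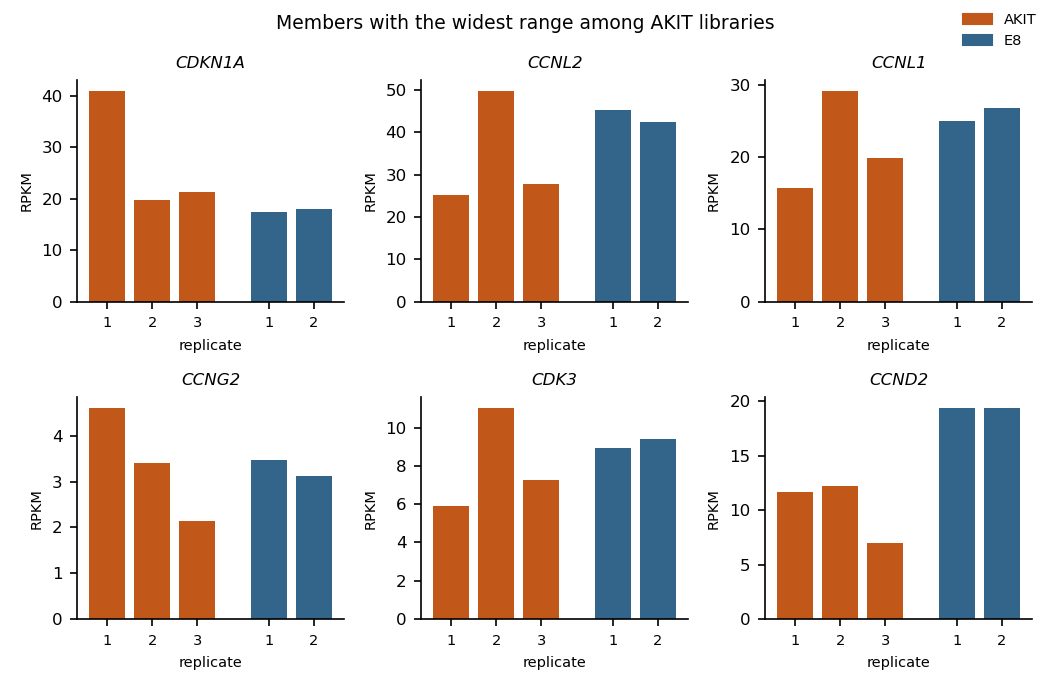
RPKM (y axis, from 0) in each AKIT and E8 replicate (x axis) for the 6 genes with the widest log2 range among AKIT libraries. CDKN1A is highest in AKIT replicate 1, and CCNL2, CCNL1 and CDK3 are highest in AKIT replicate 2, where they exceed both E8 libraries.

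Lists of other cell cycle regulators were read from the same fit, in which 8.22% of all tested genes rose and 11.7% fell. Of 13 genes of the retinoblastoma family, the E2F factors and their partners, 0 passed, although 3 did without AKIT replicate 2 (RB1 and E2F3 higher, E2F1 lower). E2F3 had the smallest p of that list, with a difference of 0.26 ± 0.09 (limma adjusted p = 0.0846). Of 5 proliferation markers 0 passed, with TYMS, thymidylate synthase, the nearest (difference -0.34, limma adjusted p = 0.0606). Without AKIT replicate 2, RRM2, a subunit of ribonucleotide reductase, was higher and TYMS lower, and both passed. Of 8 enzymes and adaptors that act on CDKs, CDC25B, a phosphatase that activates CDK1, fell to 11.1 ± 0.610 RPKM in AKIT, against 17.1 ± 1.61 RPKM in E8 (limma adjusted p = 0.0129). Of 10 parts of ubiquitin ligases, SKP2, the F-box protein that targets p27 for destruction, rose: it had 28.8, 22.5 and 26.2 RPKM in AKIT, against 15.3 and 14.4 RPKM in E8 (difference 0.75 ± 0.12, limma adjusted p = 0.0089).

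Of 12 mitotic kinases and regulators of mitotic genes, 3 fell (against 11.7% of all tested genes) and 0 rose, and the median difference was 0.12. PLK1, a kinase that promotes mitotic entry, was at 47.5 ± 4.02 RPKM in AKIT and 67.9 ± 3.51 RPKM in E8 (limma adjusted p = 0.0187). BUB1B, of the spindle checkpoint, was at 24.7 ± 1.77 RPKM in AKIT and 33.6 ± 0.626 RPKM in E8 (limma adjusted p = 0.0262), and AURKA, a spindle kinase, at 35.8 ± 2.44 RPKM in AKIT and 46.8 ± 3.35 RPKM in E8 (limma adjusted p = 0.0437). FOXM1, an activator of such genes, had a difference of 0.25 and did not pass, but it passed without AKIT replicate 2. In a further list of 8 genes, BBC3, an apoptosis gene, fell (-0.44 ± 0.10, limma adjusted p = 0.0268) and the others did not pass.

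Of 12 tested partners of transcriptional and atypical CDKs, HEXIM1 and CABLES2 fell and 0 rose, against 11.7% and 8.22% of all tested genes. HEXIM1, which holds the CDK9 and cyclin T complex inactive, had 13.8, 15.1 and 16.4 RPKM in AKIT, against 32.3 and 29.5 RPKM in E8 (difference -0.99 ± 0.11, limma adjusted p = 0.00251). It passed under all 11 alternatives (limma adjusted p = 0.000553 to 0.0486). CABLES2, an adaptor of CDKs, fell by 0.46 on the log2 scale (limma adjusted p = 0.0449). Both tested MYC family genes, which encode factors that drive growth and many cell cycle genes, fell. MYCN had 64.3, 85.5 and 62.7 RPKM in AKIT, against 133 and 137 RPKM in E8 (difference -0.94 ± 0.15, limma adjusted p = 0.00779). MYC had 70.2, 125 and 74.5 RPKM in AKIT, against 156 and 163 RPKM in E8 (-0.87 ± 0.24, limma adjusted p = 0.0442), with AKIT replicate 2 the highest of the AKIT libraries.

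Of these 10 calls outside the cyclin and CDK family, only that of HEXIM1 held with either E8 library left out. Without E8 replicate 1 or 2, adjusted p was 0.0827 and 0.104 for SKP2, 0.157 and 0.0848 for CDC25B, 0.193 and 0.135 for PLK1, 0.190 and 0.224 for BUB1B, 0.0795 and 0.0868 for MYCN and 0.201 and 0.229 for MYC, all in limma. AURKA, BBC3 and CABLES2 were at 0.143 to 0.339 in the same fits. Calls also ended without AKIT replicate 1 for AURKA (0.0948), BBC3 (0.0508), BUB1B (0.0546), CABLES2 (0.0767) and MYC (0.105), and without AKIT replicate 3 for AURKA (0.0516), BBC3 (0.0643), CABLES2 (0.0891) and MYC (0.121), as limma adjusted p. With no filter on low values MYC (0.0815), AURKA (0.0526) and CABLES2 (0.0792) did not pass, nor did AURKA (0.0524) and CABLES2 (0.0504) with median-of-ratios scaling. Leaving out AKIT replicate 2 added calls in these lists: MNAT1, CUL1, SPDYA and SESN1 were higher and LARP7 lower, and among the markers NANOG and CGA were higher and SALL4 lower. In that fit 14.5% of all tested genes rose and 17.8% fell.

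**Figure D5:**
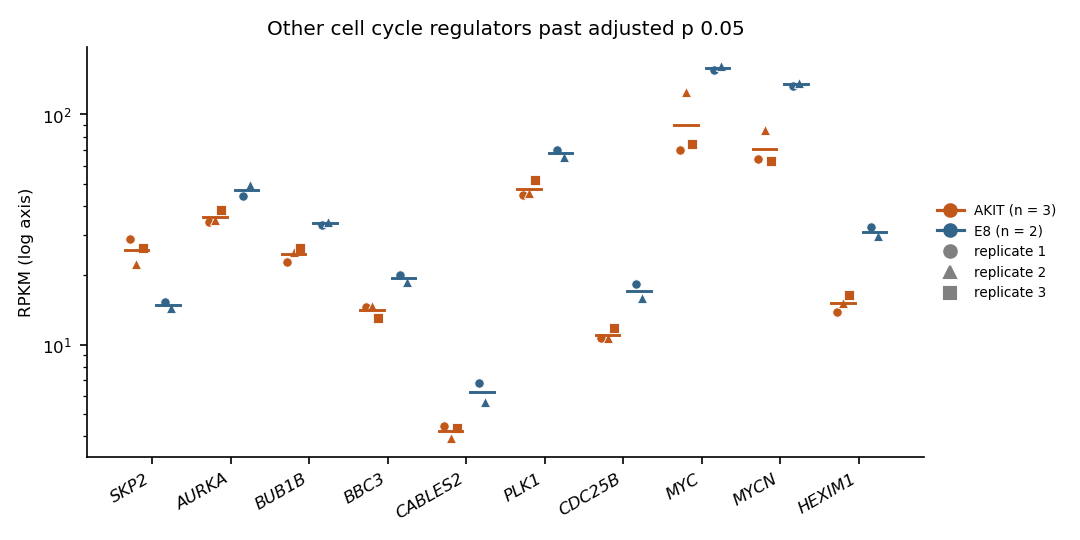
RPKM on a log axis for the 10 called genes of the lists of regulators, with the apoptosis gene BBC3 among them. The genes passed an adjusted p of 0.05 and are ordered by difference. Each AKIT and E8 library is a point and the group mean a line. SKP2 is the gene with all AKIT libraries above E8, and HEXIM1 and MYCN have the lowest log2 differences.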

How the data were processed

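Total RNA of the KhES-1 cultures was isolated with a column kit and sequenced on libraries of the usual Illumina kind, per the labels' protocols. The authors deposited RPKM values for 23346 gene rows. The submitters' processing notes name hg19 and GRCh37. Aligner, counter, annotation and strand setting: not given in the sources used here. Whether reads of a gene and an overlapping antisense gene were told apart is therefore unknown. Columns were assigned to samples through the sample titles.

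A gene's RPKM values move in steps of 1 read. These steps gave the depth of each library and whole reads for 19890 of 19892 genes above 0 (tolerance 0.02 reads), used for depth, for the floor of 3 reads and in 1 alternative. The steps leave the depth free by a whole factor. The smallest factor was taken at which the reads over genes did not exceed the depth.

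The test was limma 3.58.1 in R 4.3.3, two-sided, with a mean-variance trend, on log2(RPKM + 1). Genes needed a mean of 0.5 RPKM over the 5 libraries, and p-values were adjusted by Benjamini-Hochberg over 14776 genes (threshold 0.05). As E8 replicate 3 had no column here, 3 libraries were compared with 2. The fit was tested on simulated reads with the same spread setting for every gene and library. That test therefore does not cover a spread that differs between the media. Alternatives were a pseudocount of 0.1, no filter on low values, a filter at 2 RPKM, scaling by median of ratios, voom on the recovered reads, a replicate block, and leaving out each library. Named by rule were the called genes of the family, its main G1, S and mitotic cyclins and CDKs, its CDKN1 and CDKN2 genes, and up to 3 called genes of each other list (with none called, the gene of smallest p). Other genes were named after their values were seen. The family and the lists were chosen with earlier results of these data known. 1 gene of the other lists is not reported here.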

Additional observations from a re-analysis of the deposited data

How the results depend on the processing

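Of 14776 genes tested, 1214 rose and 1736 fell, and of the 51 tested cyclins, CDKs and inhibitors 1 rose and 7 fell. With each library left out in turn, 142 to 2132 genes rose and 250 to 2619 fell over all genes, and 0 to 6 rose and 1 to 10 fell in the family. With no filter on low values, 4 of the family fell. The cause was not tested. With the replicate number as a block, 492 genes rose and 824 fell over all genes, and 4 of the family fell, with CDK1, CCNI and CDKN1C no longer called. AURKA, BBC3, BUB1B, CABLES2, MYC, SOX2, PODXL, COL1A1, THY1 and HHEX were also not called in that fit. The labels do not say whether a replicate number marks a shared batch. Deviations of same-numbered libraries from their group means correlated at -0.001 and 0.025. With 2 E8 libraries the E8 deviations mirror each other, so these values cannot settle the question. AKIT replicate 3, which has no E8 partner, adds nothing to that fit. Signs turned for genes that did not pass: CCNB1 and CDKN1B were at -0.11 and 0.03 under the replicate block, and over the fits with 1 library left out CCNB1 ranged from -0.11 to 0.13, CCND1 from -0.016 to 0.17, CCND3 from -0.27 to 0.081, CDKN1B from -0.16 to 0.080 and CDKN2D from -0.015 to 0.23. Each of the 8 called genes kept its direction under all 11 alternatives. With 2 E8 libraries the spread in E8 is known poorly, and genes of few reads such as CDKN2A and CDKN2C cannot be compared at this depth.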
